A study of Mus musculus with 27 samples.

Results

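The dual-specificity MAPK phosphatases Dusp1, Dusp2, Dusp4, Dusp5, Dusp6, Dusp7, Dusp8, Dusp10, Dusp14 and Dusp16 were followed in chromatin-associated RNA of mouse macrophages. The 10 genes were picked by symbol from the 45070 genes of the table. The rule uses no measured value, but the set was chosen with earlier results of these data known. The cells were wild-type bone marrow-derived macrophages (BMDMs), which are primary macrophages grown from bone marrow, here of male C57/BL6 mice aged 6 to 8 weeks. Per the methods, cells were kept for 1 h in DMSO, the vehicle of the kinase inhibitors that the study used elsewhere, and then stimulated. They were given 10 ng/ml of lipopolysaccharide (LPS), a bacterial component sensed by TLR4, or 10 ng/ml of the cytokine interleukin-4 (IL-4). The methods do not say separately whether the untreated cells, which got neither, were kept in DMSO. Stimulated cells were taken 0.5, 1, 2 or 4 h later, which gave 9 groups of 3 replicates. Chromatin-associated RNA is rich in transcripts that are still being made, so the values follow ongoing transcription more closely than the mRNA pool. The labels do not say whether replicates came from separate mice, so the p-values measure the spread between these samples, which may be technical.

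MAP kinases are switched on by phosphorylation of a threonine and a tyrosine in the activation loop, and dual-specificity phosphatases remove both phosphates. Many of these phosphatase genes are themselves transcribed in response to MAP kinase signalling, which makes them classical negative feedback genes. Dusp1, Dusp2, Dusp4 and Dusp5 encode inducible nuclear enzymes, Dusp6 and Dusp7 cytoplasmic enzymes that act mainly on ERK, and Dusp8, Dusp10 and Dusp16 enzymes that act mainly on JNK and p38. Dusp14 encodes a small atypical member that lacks the MAP kinase-binding domain. In macrophages Dusp1 is best known as a brake on p38 and JNK signalling, and hence on cytokine production, after TLR4 stimulation.

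The family split by stimulus. LPS raised Dusp1, Dusp2, Dusp4, Dusp5, Dusp8 and Dusp16 within 0.5 h, and lowered Dusp6 and Dusp7. IL-4 raised Dusp4 too, and kept it raised through 4 h, when Dusp4 in LPS was not called against untreated as the values were deposited (-0.43, limma, adjusted p = 0.289) and was called lower with equal sample sums (-0.96, adjusted p = 0.0172). At 2 and 4 h IL-4 lowered Dusp1, Dusp6 and Dusp16, and Dusp7 rose in IL-4 while it fell in LPS. Of these IL-4 calls, those of Dusp16 at both times and of Dusp1 at 4 h held in every alternative. Those of Dusp6 and Dusp7, and that of Dusp1 at 2 h, were lost without replicate 2. At 4 h the group mean of Dusp16 was 27.5 times the untreated mean in LPS and 0.325 times in IL-4.

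The sum of normalised read counts per sample ran from 2488987 to 2578543 in untreated cells, from 3571492 to 4058199 in LPS and from 2469768 to 2790981 in IL-4, and how many reads these stand for is unknown. In all 9 groups replicate 1 stood apart from the other two: over the 620 genes with a mean of at least 1000, the log2 difference between replicates 2 and 3 had an SD of 0.14 to 0.29, against 0.37 to 0.50 for either pair with replicate 1. LPS moved the median of all tested genes by -0.24 to -0.30 (log2) against untreated. Of all calls at a time point of LPS, 36.3% to 40.8% were higher, against 48.2% to 49.3% after median-of-ratios rescaling and 18.3% to 23.7% with sample sums made equal. The 8 macrophage markers summed to 9594 to 17757 per sample, while markers of B cells, T and NK cells, mast cells and erythroid cells summed to at most 14 and those of neutrophils to at most 31. Dendritic cell markers reached 103 (LPS 1 h) and stromal and endothelial markers summed to 50 to 97 in untreated cells, 161 to 329 at 4 h of LPS and 177 to 271 at 4 h of IL-4. Their part in the changes given here was not tested, and in bulk RNA fewer cells of a type and less RNA per cell cannot be told apart.

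For 9 of the 10 genes, all but Dusp4, the RefSeq table (GRCm38.p6) held the promoter, taken as 250 bases before to 50 after the start. Among the LPS groups the mean of Dusp1, Dusp4, Dusp5, Dusp6 and Dusp8 was highest at 0.5 h. For Dusp6 this was the least lowered group, as all its LPS means were below the untreated mean. Dusp4 had no window to search, and the Dusp6 window held no match. The following stretches come from the other 3 genes and hold their motif matches. They are printed 5′ to 3′ on the strand of the gene, with the matches in capitals.
Dusp1 (chr17:26508593-26508630, minus strand, -158 to -121 from the start): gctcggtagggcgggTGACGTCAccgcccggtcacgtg
Dusp8 (chr7:142095325-142095406, minus strand, -122 to -41 from the start): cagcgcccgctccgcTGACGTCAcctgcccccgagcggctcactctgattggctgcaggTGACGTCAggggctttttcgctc
Dusp5 (chr19:53529048-53529097, plus strand, -97 to -48 from the start): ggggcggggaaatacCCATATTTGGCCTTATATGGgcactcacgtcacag
The cyclic AMP response element TGACGTCA was found 1 time in the Dusp1 window and 2 times in the Dusp8 window, and 1.79% of all 32851 promoter windows hold it. The Dusp5 capitals are 2 adjoining matches to the CArG box, the site of the serum response factor, which 1.63% of windows hold. A STAT motif (TTCNNNGAA, 8.30% of windows) was matched in Dusp14 alone among the 9. The AP-1 motif TGANTCA (7.81% of windows), the EGR motif GCGTGGGCG (0.612%), the NF-κB motif (4.51%) and TATAAA (13.6%) had no match in any of the 9 windows. Both strands were searched. A match describes letters in this window and is not a measured binding site.

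Dusp1, on chromosome 17 (26505591 to 26508472, minus strand), encodes the nuclear phosphatase of p38 and JNK named above. It had 14, 22 and 39 normalised read counts in untreated cells. At 0.5 h of LPS it had 1443, 1916 and 2184, and at 1 h 1224, 1530 and 1800. Every LPS sample of both times lay far above the highest untreated sample, with group means 73.9 and 60.7 times the untreated mean. It then had 553, 890 and 934 after 2 h and 461, 1025 and 899 after 4 h, so that the level at 4 h was 43.0% of that at 0.5 h (single replicates 25.0% to 55.5%). On the log2(value + 1) scale the change from untreated was 6.25 ± 0.34 (SE, n = 3 per group) at 0.5 h (limma, adjusted p = 9.19e-10) and still 4.97 ± 0.34 at 4 h (limma, adjusted p = 4.07e-09). Between 1 and 2 h it fell by 0.96 (limma, adjusted p = 0.0325), a call that was lost without replicate 2 (adjusted p = 0.151) or 3 (adjusted p = 0.0892).

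**Figure D1:**
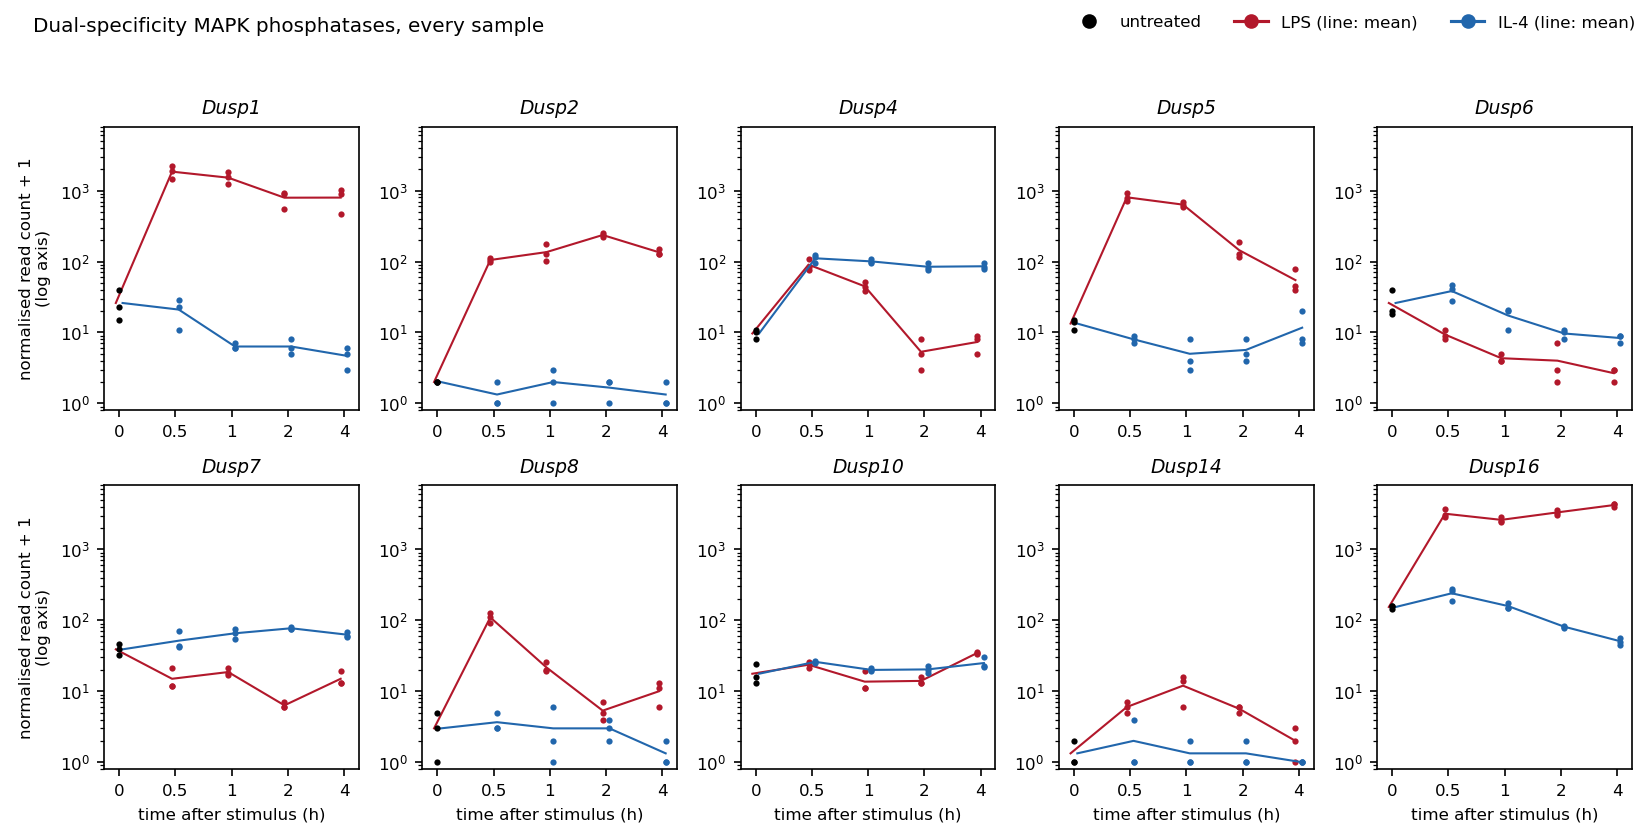
Normalised read count plus 1 (log axis) of each of the 10 genes against the time after the stimulus, with times evenly spaced; points are single samples (black untreated, red LPS, blue IL-4) and lines join group means. Dusp1 in LPS lies between 461 and 2184 and in IL-4 between 2 and 28, and Dusp4 at 4 h lies between 4 and 8 in LPS and between 77 and 93 in IL-4.

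Dusp5 (chromosome 19, 53529145 to 53541809, plus strand) encodes a nuclear phosphatase that is selective for ERK. Untreated cells had 14, 10 and 13 normalised read counts, and LPS brought 702, 930 and 777 after 0.5 h and 693, 577 and 627 after 1 h. Dusp5 then declined further than Dusp1 did, to 189, 116 and 125 after 2 h and 78, 44 and 39 after 4 h, which is 6.68% of the 0.5 h mean. No 2 neighbouring LPS times overlapped, and the lowest 4 h sample was still above the highest untreated one. The log2 change from untreated was 5.92 ± 0.24 at 0.5 h (limma, adjusted p = 2.42e-11) and 1.98 ± 0.24 at 4 h (limma, adjusted p = 3.00e-06). The steps from 1 to 2 h and from 2 to 4 h were -2.16 and -1.43 with limma adjusted p of 2.40e-06 and 0.000490.

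Dusp2 (chromosome 2, 127336159 to 127338377, plus strand) encodes a nuclear phosphatase first known from activated lymphocytes and was nearly silent without LPS. It had 1 normalised read count in each untreated sample and 0 to 2 in the 12 IL-4 samples. LPS gave 103, 111 and 98 after 0.5 h, 177, 102 and 125 after 1 h, 248, 221 and 237 after 2 h and 151, 126 and 125 after 4 h. Its highest group was thus the 2 h group, later than for Dusp1 and Dusp5. From 1 to 2 h it rose by 0.84 ± 0.18 (limma, adjusted p = 0.00163) and from 2 to 4 h it fell by 0.81 (limma, adjusted p = 0.00489). Both steps were lost without replicate 2 (adjusted p = 0.0570 and 0.0698) and without replicate 3 (0.0619 and 0.143). The fitted change at 2 h was 6.88 ± 0.18 with a pseudocount of 1 and 4.76 ± 0.17 with a pseudocount of 8 (limma, adjusted p = 1.34e-13 and 1.68e-12), so its size hangs on the pseudocount. Dusp2 passed the filter on low values only through its 12 LPS samples.

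Dusp4 (chromosome 8, 34807610 to 34819894, plus strand), another nuclear phosphatase, was raised by both stimuli. Untreated cells had 9, 7 and 10 normalised read counts. LPS gave 76, 83 and 109 after 0.5 h and 50, 38 and 43 after 1 h, but 2, 7 and 4 after 2 h and 8, 4 and 7 after 4 h. From 2 h on no LPS sample was above the untreated range, and the 2 h mean was 4.85% of that at 0.5 h. IL-4 gave 94, 123 and 113 after 0.5 h, 97, 108 and 93 after 1 h, 81, 76 and 93 after 2 h and 93, 84 and 77 after 4 h, and every IL-4 sample lay above every untreated one. The log2 change from untreated was 3.22 ± 0.34 in LPS at 0.5 h (limma, adjusted p = 1.57e-06). In IL-4 it was 3.53 ± 0.15 at 0.5 h (limma, adjusted p = 6.47e-09) and 3.16 ± 0.15 at 4 h (limma, adjusted p = 6.14e-09). At 2 h of LPS Dusp4 was called lower than untreated (-0.96 ± 0.34, limma, adjusted p = 0.0225), but the ranges touch at 7 and the call was lost without replicate 1 (adjusted p = 0.170), without replicate 3 (0.180), with a pseudocount of 8 (0.0539) and after median-of-ratios rescaling (0.0567).

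Dusp8 (chromosome 7, 142079487 to 142095284, minus strand) encodes a phosphatase of JNK and p38 and was highest at 0.5 h of LPS. It had 2, 0 and 4 normalised read counts in untreated cells, 109, 91 and 127 after 0.5 h of LPS and 19, 18 and 25 after 1 h. By 1 h it was at 19.0% of the 0.5 h mean, and at 2 h it had 3, 6 and 4. The 4 h samples had 10, 12 and 5. The change from untreated was 5.47 ± 0.48 at 0.5 h (limma, adjusted p = 1.87e-07), or 3.56 ± 0.21 with a pseudocount of 8, and from 0.5 to 1 h it fell by 2.34 (limma, adjusted p = 0.000810). At 4 h it was called higher than untreated (1.95 ± 0.48, limma, adjusted p = 0.00227), a call that was lost without replicate 2 (1.07, adjusted p = 0.0667). The 12 IL-4 samples had 0 to 5. Dusp8 had at least 10 normalised read counts in 8 samples, all of them LPS samples. It overlaps Gm32786 on the other strand, and the Smart-seq2 procedure does not mark the strand of a read, so reads of the genes cannot be told apart.

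Dusp16 (chromosome 6, 134715468 to 134792628, minus strand), also a phosphatase of JNK and p38, was well expressed before any stimulus, with 144, 157 and 158 normalised read counts. LPS gave 2874, 3664 and 3013 after 0.5 h, 2906, 2441 and 2474 after 1 h, 3600, 3101 and 3270 after 2 h and 4314, 4330 and 3995 after 4 h. Unlike the pulses of Dusp4 and Dusp8, the level stayed between 61.9% and 100% of its highest mean, which was that of 4 h. The change from untreated was 4.36 ± 0.11 at 0.5 h (limma, adjusted p = 1.48e-13) and 4.77 ± 0.11 at 4 h (limma, adjusted p = 4.08e-14). IL-4 gave 184, 277 and 258 after 0.5 h, 148, 177 and 149 after 1 h, 80, 78 and 83 after 2 h and 49, 44 and 56 after 4 h. The 2 h and 4 h groups of IL-4 lay below every untreated sample and did not overlap each other. Their changes were -0.92 ± 0.14 (limma, adjusted p = 0.000244) and -1.61 ± 0.14 (limma, adjusted p = 1.96e-06). The rise at 0.5 h of IL-4 was 0.62 ± 0.14 (limma, adjusted p = 0.00741) and was lost without replicate 2 (0.143) or 3 (0.155), while the falls at 2 and 4 h stayed past the threshold in all 10 alternatives. Dusp16 overlaps 1700055D16Rik and Gm36328 on the other strand, so part of its reads could be theirs.

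Dusp10 (chromosome 1, 184034381 to 184075636, plus strand), the remaining phosphatase of JNK and p38, gave small differences whose calls depended on the scaling. It had 12, 23 and 15 normalised read counts in untreated cells, 10 to 25 in LPS up to 2 h, 32, 35 and 34 after 4 h of LPS and 17 to 29 in IL-4. The 4 h group of LPS lay above every other sample. Its change from untreated was 1.02 ± 0.28 (limma, adjusted p = 0.00507), which was lost with equal sample sums (0.44, adjusted p = 0.171) and without replicate 3 (0.96, adjusted p = 0.0819). The 0.5 h change of 0.46 (limma, adjusted p = 0.178) was called after median-of-ratios rescaling (0.70, adjusted p = 0.0415) and took the other sign with equal sums. With equal sums Dusp10 was also called lower at 1 h and 2 h of LPS (both -0.91, limma, adjusted p = 0.00842 and 0.00829). The IL-4 course as a whole was not called (limma F test, adjusted p = 0.157).

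Dusp6 (chromosome 10, 99263231 to 99267489, plus strand) encodes the cytoplasmic ERK phosphatase that is widely read as a gauge of ERK activity. It had 17, 19 and 39 normalised read counts in untreated cells. LPS brought it to 8, 7 and 10 after 0.5 h, 3, 4 and 3 after 1 h, 6, 2 and 1 after 2 h and 2, 1 and 2 after 4 h. All 12 LPS samples lay below the lowest untreated sample. The change was -2.50 ± 0.44 at 1 h (limma, adjusted p = 0.000148) and -3.21 ± 0.44 at 4 h (limma, adjusted p = 1.06e-05), the latter -1.71 ± 0.22 with a pseudocount of 8, and that of -1.39 at 0.5 h (limma, adjusted p = 0.0140) was lost without replicate 2 (0.0995) or 3 (0.101). IL-4 gave 27, 40 and 45 after 0.5 h, 10, 19 and 20 after 1 h, 9, 7 and 10 after 2 h and 8, 6 and 8 after 4 h. The 0.5 h samples overlapped untreated, and those of 2 and 4 h lay below it. Dusp6 was called lower at 2 h (-1.34 ± 0.33, limma, adjusted p = 0.00789) and 4 h (-1.56 ± 0.33, limma, adjusted p = 0.00337), and both calls were lost without replicate 2 (0.105 and 0.0721) or 3 (0.103 and 0.0726). Dusp6 overlaps Gm34921 on the other strand.

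Dusp7 (chromosome 9, 106368632 to 106375724, plus strand), the other cytoplasmic ERK phosphatase, moved in opposite directions. It had 45, 31 and 38 normalised read counts in untreated cells. In LPS it had 20, 11 and 11 after 0.5 h, 17, 16 and 20 after 1 h, 6, 5 and 5 after 2 h and 12, 18 and 12 after 4 h, all below the lowest untreated sample. The change was largest at 2 h (-2.61 ± 0.28, limma, adjusted p = 8.43e-07), and Dusp7 was higher again at 4 h than at 2 h (1.22 ± 0.28, limma, adjusted p = 0.00536), a step lost without replicate 2 (0.133) or 3 (0.0983). In IL-4 it had 69, 41 and 42 after 0.5 h, 75, 65 and 54 after 1 h, 80, 74 and 75 after 2 h and 60, 57 and 68 after 4 h. From 1 h on, every IL-4 sample lay above every untreated one. The largest IL-4 change was 1.00 ± 0.20 at 2 h (limma, adjusted p = 0.00178) and was lost without replicate 2 (0.0655). The calls at 1 h (0.75) and 4 h (0.70) were lost without replicate 2 (adjusted p = 0.234 and 0.188) or 3 (0.0943 and 0.197).

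Dusp14 (chromosome 11, 84048045 to 84068357, minus strand), the small atypical member, reached 10 normalised read counts in 2 samples only and was not tested in the main fit. It had 0, 1 and 0 in untreated cells, 5, 6 and 4 after 0.5 h of LPS, 5, 15 and 13 after 1 h, 4, 5 and 5 after 2 h, 1, 0 and 2 after 4 h, and 0 to 3 in IL-4. The LPS groups up to 2 h did not overlap untreated. In a fit without the filter its change at 1 h of LPS was 3.13 ± 0.47 (limma, adjusted p = 0.000310), at levels where a few reads decide the value.

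**Figure D2:**
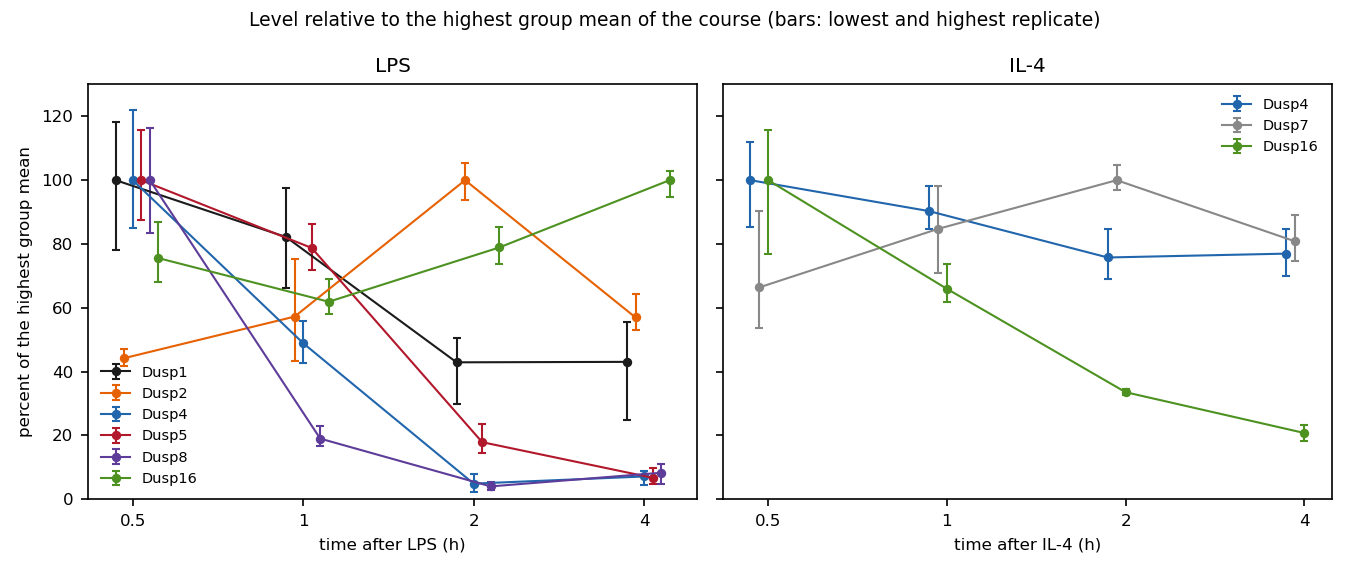
Group mean as a percent of the highest group mean of the course against time, for the 6 genes raised by LPS at 0.5 h (left) and for the 3 genes called higher in IL-4 at any time (right); bars run from the lowest to the highest replicate. At 4 h of LPS Dusp4, Dusp5 and Dusp8 were at 7.09%, 6.68% and 8.26%, Dusp1 at 43.0% and Dusp2 at 56.9%, while Dusp16 was at its highest.

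The counts of called genes have to be read against all 13901 tested genes, of which 9 were from the family. Over the LPS course all 9 changed, at a background of 87.6% of genes (32.9% mainly rising and 54.7% mainly falling, by the largest change), so the number called says little and the direction and size carry the description. At 0.5 h 6 genes were higher and 2 lower (background 19.6% higher and 34.4% lower). The same 6 were higher and the same 2 lower at 1 h (24.8% and 39.0%). These splits were 7 to 2 at 0.5 h after median-of-ratios rescaling and 6 to 3 at 1 h with equal sums. At 2 h Dusp1, Dusp2, Dusp5 and Dusp16 were higher and Dusp4, Dusp6 and Dusp7 lower (26.9% and 39.0%), a split of 4 to 3 that was 5 to 2 after median-of-ratios rescaling and 4 to 4 with equal sums. At 4 h Dusp1, Dusp2, Dusp5, Dusp8, Dusp10 and Dusp16 were higher and Dusp6 and Dusp7 lower (25.9% and 37.6%), a split of 6 to 2 that was 5 to 3 with equal sums. Dusp2 and Dusp8 could pass the filter only where LPS had raised them, so these counts are no support for a rise of the family.

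Between neighbouring LPS times the family changed in both directions. From 0.5 to 1 h Dusp4, Dusp6, Dusp8, Dusp10 and Dusp16 fell (background 49.7% in either direction: 25.1% higher and 24.6% lower). This set was fragile: the step of Dusp8 alone stayed past the threshold without each single replicate, and those left were 2 without replicate 2 and 1 without replicate 3. From 1 to 2 h Dusp2 and Dusp16 rose and Dusp1, Dusp4, Dusp5, Dusp7 and Dusp8 fell (43.3%: 21.5% higher and 21.8% lower). The split of 2 to 5 became 1 to 5 under either rescaling, and 4 calls were left without replicate 2 or without replicate 3. From 2 to 4 h Dusp7, Dusp10 and Dusp16 rose and Dusp2 and Dusp5 fell (22.9%: 11.4% higher and 11.5% lower). Of these calls 2 were left without replicate 2 and 1 without replicate 3. The 3 steps of Dusp16 were small, between -0.28 and 0.35 in log2.

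Over the IL-4 course Dusp1, Dusp4, Dusp5, Dusp6, Dusp7 and Dusp16 changed, at a background of 40.3% (19.4% mainly rising and 20.9% mainly falling). Without replicate 2 this count was 2 and without replicate 3 it was 3. At 0.5 h Dusp4 and Dusp16 were higher (background 8.15% higher and 8.14% lower). At 1 h Dusp4 and Dusp7 were higher and Dusp1 and Dusp5 lower (11.1% and 9.83%). At 2 h the same 2 genes were higher and Dusp1, Dusp5, Dusp6 and Dusp16 lower (14.3% and 13.2%). At 4 h Dusp4 and Dusp7 were higher and Dusp1, Dusp6 and Dusp16 lower (13.4% and 12.5%). With equal sums the share of higher genes among all IL-4 calls at 0.5 h was 31.4% in place of 50.02% and at 1 h 39.5% in place of 53.1%, with the family's own split as it was.

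Dusp1 in IL-4 had 10, 22 and 28 normalised read counts at 0.5 h, 6, 5 and 5 after 1 h, 5, 7 and 4 after 2 h and 2, 5 and 4 after 4 h. The 0.5 h samples overlapped the untreated ones and the later samples lay below all of them. Its change at 4 h was -2.42 ± 0.41 (limma, adjusted p = 0.000635) and was past the threshold in all 10 alternatives, while those of -1.93 at 1 h and -1.95 at 2 h were lost without replicate 2 (adjusted p = 0.0966 and 0.0520) or 3 (0.107 and 0.104). Dusp5 had 8, 6 and 7 after 0.5 h, 7, 2 and 3 after 1 h, 7, 4 and 3 after 2 h and 19, 7 and 6 after 4 h of IL-4. Its low values at 1 h (-1.53, limma, adjusted p = 0.0205) and 2 h (-1.28, limma, adjusted p = 0.0395) were lost without replicate 2 (0.228 and 0.180) or 3 (0.222 and 0.334), and at 4 h it overlapped untreated. Between neighbouring IL-4 times Dusp1, Dusp6 and Dusp16 fell from 0.5 to 1 h (background 7.82% in either direction, 3.61% lower). Dusp16 alone fell from 1 to 2 h (9.40%, 5.37% lower) and from 2 to 4 h (5.48%, 3.09% lower). With equal sums the share of rises among all calls went from 42.9% to 59.5% for the step from 1 to 2 h and from 43.7% to 55.3% for that from 2 to 4 h. All 5 steps of the family were lost without replicate 2 and without replicate 3. For Dusp16 from 1 to 2 h, which fell by 0.96 (limma, adjusted p = 0.000792), the values were 0.0669 and 0.0556.

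**Figure D3:**
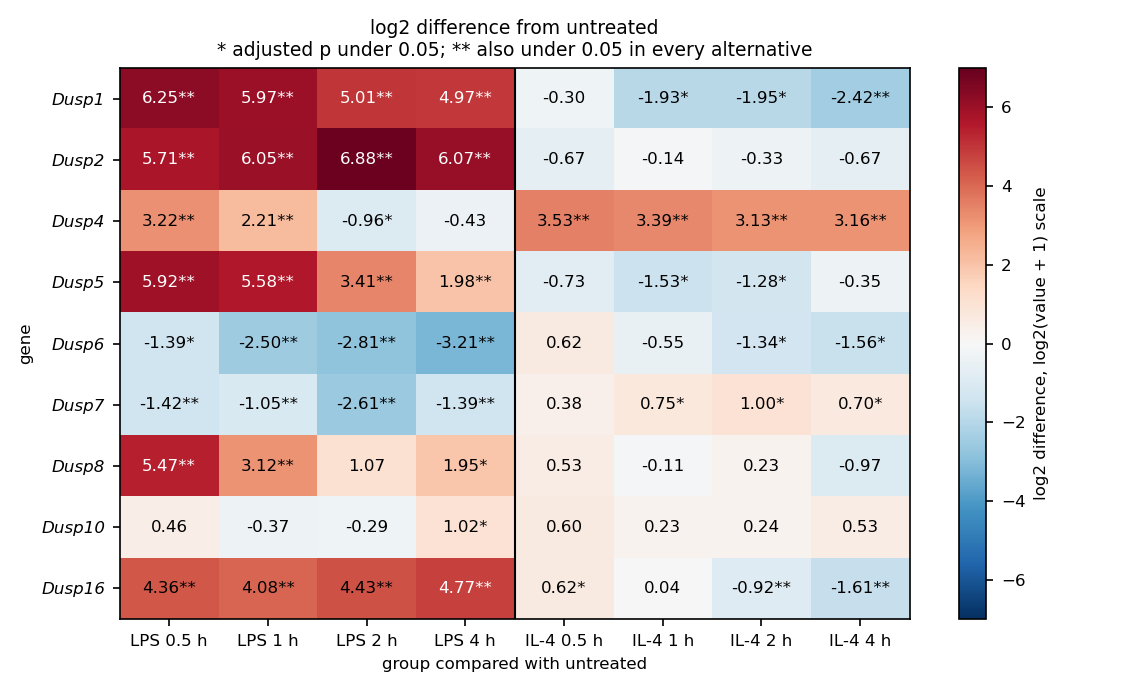
Log2 difference from untreated on the log2(value + 1) scale for the 9 tested genes (rows) at the 4 times of LPS and of IL-4 (columns); red is higher, blue is lower, 1 star marks an adjusted p under 0.05 and 2 stars one that was also under 0.05 in every alternative that gave a value. At 0.5 h Dusp4 is raised in both courses, at 3.22 and 3.53, as is Dusp16, at 4.36 and 0.62, and Dusp7 is lower at all LPS times and called higher in IL-4 from 1 h on.

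The stimuli were also tested against each other at every time, since a call in one course and none in the other does not show a difference. At 0.5 h Dusp1, Dusp2, Dusp5, Dusp8 and Dusp16 were higher in LPS (background 18.0%) and Dusp6 and Dusp7 lower (35.8%). At 1 h the same 5 were higher (24.0%) and Dusp4, Dusp6, Dusp7 and Dusp10 lower (40.5%). At 2 h Dusp1, Dusp2, Dusp5 and Dusp16 were higher (26.4%) and Dusp4, Dusp6, Dusp7 and Dusp10 lower (42.3%). At 4 h Dusp1, Dusp2, Dusp5, Dusp8 and Dusp16 were higher (26.1%) and Dusp4, Dusp6 and Dusp7 lower (41.9%). Dusp2 and Dusp8 passed the filter only through LPS samples, so their place among the higher genes was fixed by the filter and is no support. Of all genes called, 33.4% to 38.4% were higher in LPS, against 47.1% to 48.4% after median-of-ratios rescaling and 19.1% to 22.6% with equal sums.

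The difference for Dusp16 widened over time, from 3.74 ± 0.13 at 0.5 h to 6.38 ± 0.13 at 4 h (limma, adjusted p = 1.20e-16 and 2.57e-21), as its level went up in LPS and down in IL-4. That for Dusp5 was 6.65 ± 0.36 at 0.5 h and 2.33 ± 0.36 at 4 h (limma, adjusted p = 3.14e-13 and 4.88e-06). For Dusp4 the difference at 0.5 h was -0.31, with a 95% interval of -0.85 to 0.24 (limma, adjusted p = 0.350), so the level could have been up to 0.85 lower in LPS. With equal sums that difference was -0.69 (adjusted p = 0.0242). LPS and IL-4 then parted, to -1.17 ± 0.26 at 1 h (limma, adjusted p = 0.000444) and -4.09 ± 0.26 at 2 h (limma, adjusted p = 1.82e-12). With a pseudocount of 8 this 2 h difference was -2.90 ± 0.16. Dusp6, lower in both courses by 4 h, was lower in LPS than in IL-4 by -1.66 ± 0.38 at that time (limma, adjusted p = 0.000522), or -0.66 ± 0.21 with a pseudocount of 8, while its difference at 2 h was lost without replicate 3 (-0.96, adjusted p = 0.0878). For Dusp10 the calls at 1 h (-0.60) and 2 h (-0.54) were lost after median-of-ratios rescaling (adjusted p = 0.207 and 0.275), without replicate 1 (0.138 and 0.139) and without replicate 3 (0.278 and 0.175), and that at 2 h also without replicate 2 (0.0779). At 4 h the difference of 0.48 was not called (limma, adjusted p = 0.0680), but it was after median-of-ratios rescaling (0.76, adjusted p = 0.00530) and with a pseudocount of 8 (0.39, adjusted p = 0.0375). For Dusp8 the 2 h difference was 0.85 with an interval of -0.28 to 1.98 (limma, adjusted p = 0.174).

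**Figure D4:**
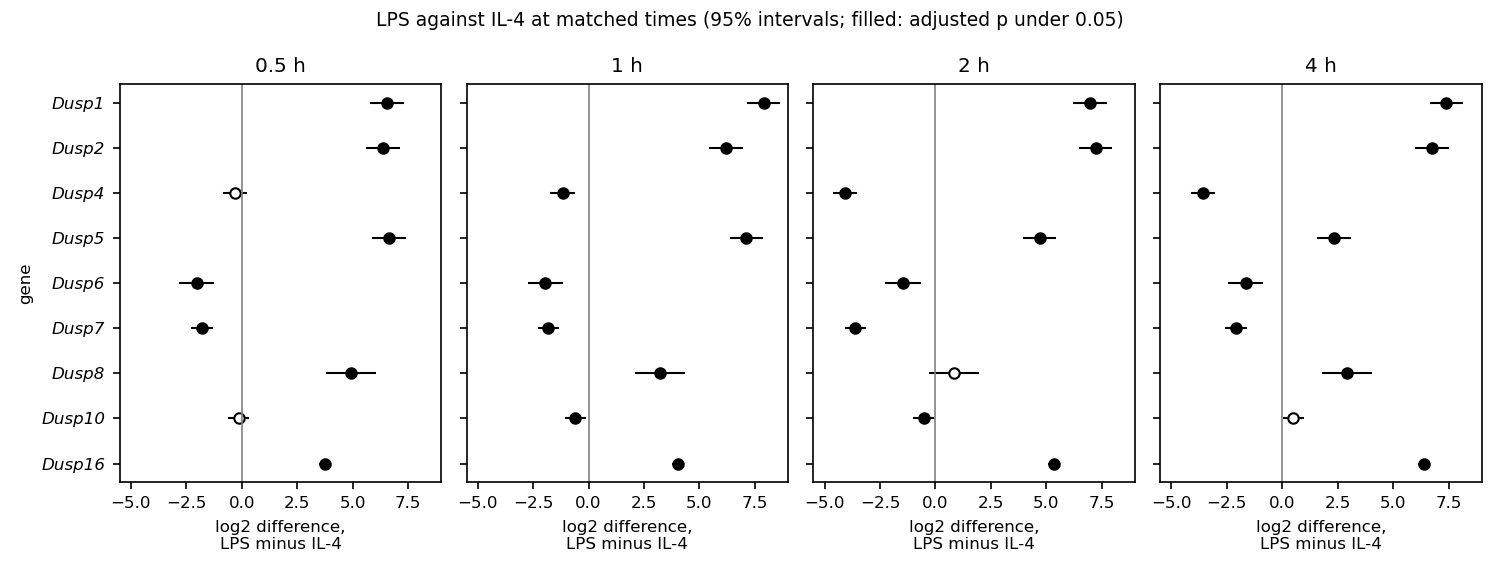
Log2 difference between LPS and IL-4 (LPS minus IL-4) with its 95% interval for the 9 tested genes at each time; filled points have an adjusted p under 0.05. Dusp1, Dusp5 and Dusp16 lie right of 0 at all times, and Dusp4 goes from -0.31 at 0.5 h to -4.09 at 2 h. Dusp2 and Dusp8 also lie right of 0, but they passed the filter only through LPS samples, which fixed their side.

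Levels of different genes were compared per kilobase of cDNA, with the caveat that this RNA holds introns. In untreated cells Dusp16 came first with 29.9 normalised read counts per kilobase, followed by Dusp1 (12.9), Dusp7 (11.8) and Dusp6 (8.94), and Dusp2, Dusp8 and Dusp14 were each under 1. At 0.5 h of LPS the order was Dusp1 (951), Dusp16 (623) and Dusp5 (442), with Dusp6 last at 2.98. At 4 h of LPS Dusp16 (824) came before Dusp1 (409). Per kilobase of the whole gene, introns included, Dusp1 was first at all 3 of these points, since Dusp16 spans 77161 bases and Dusp1 2882. At 0.5 h of IL-4 Dusp16 (46.9) and Dusp4 (45.3) led per kilobase of cDNA. Per kilobase of the whole gene Dusp4 was first there and Dusp16 was at rank 5.

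Within each gene the 9 groups were ordered by mean, and neighbours were compared by whether their replicates overlapped. For Dusp1 the LPS 0.5 and 1 h groups overlapped each other, as did those of 2 and 4 h, and the 4 LPS groups stood clear of the untreated and IL-4 0.5 h groups, which overlapped. The IL-4 1, 2 and 4 h groups formed the bottom. For Dusp4 the top 5 groups, the 4 of IL-4 and LPS 0.5 h, overlapped in a chain, and LPS 1 h stood alone between them and the untreated, LPS 4 h and LPS 2 h groups. For Dusp7 the IL-4 groups and untreated overlapped in a chain from 76.3 down to 38.0 in mean, above all 4 LPS groups. For Dusp16 LPS 4 h stood alone at the top, above LPS 2, 0.5 and 1 h, which overlapped in a chain. Clear of these, IL-4 0.5 h, the pair of IL-4 1 h and untreated, IL-4 2 h and IL-4 4 h followed without overlap between these steps. In Dusp2 the LPS 2 h group stood alone above the LPS 1 and 4 h groups, which overlapped. The LPS 0.5 h group (98 to 111) lay below the LPS 4 h group (125 to 151) but overlapped the LPS 1 h group (102 to 177).

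For the 7 genes with a mean of at least 50 in their highest group, the protein-coding genes most like them were sought among 7567 genes by Pearson's r over the 9 group means, as a description. Dusp1 was closest to Cd14 (0.997), the LPS co-receptor, and Rap1b (0.996). Dusp2 was closest to Astl and Arhgef3 (both 0.996), Dusp5 to Tagln2 and Arl5c (both 0.990), and Dusp16 to Gch1 (0.989), the first enzyme of tetrahydrobiopterin synthesis, and Casp4 (0.987). High values were common for these patterns, with 152 genes above 0.95 for Dusp1, 223 for Dusp2 and 138 for Dusp16. Dusp7 was closest to Plekho1 and Dclre1b (both 0.984), and Dusp8 to Brpf1 (0.979) and Rheb (0.973). Dusp4 had few neighbours: Ap2a1 (0.961) and Tomm20 (0.953) were the only 2 genes above 0.95, and under other settings their r went down to 0.911 and 0.856. The points share their libraries and scaling, and the r of Dusp8 with Brpf1 went down to 0.564 under another setting.

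The other genes of the pathway were described from 5 lists, to be read against the 87.6% of all tested genes that changed in LPS (32.9% upwards and 54.7% downwards) and the 40.3% that did in IL-4 (19.4% upwards and 20.9% downwards). A gene low in untreated cells could be tested only where a stimulus had raised it. Counts and medians of rises are therefore no support for a rise of a list. All 17 tested MAP kinases and MAPK-activated kinases (of 21) changed over the LPS course, 6 upwards and 11 downwards by the largest change, and 9 changed in IL-4, 2 upwards and 7 downwards. The median of their largest change was -1.35 in LPS and -0.49 in IL-4, against -1.002 and -0.16 over all tested genes. Mapkapk2, a kinase that p38 activates, rose from a mean of 653.7 ± 101.2 (SD, n = 3) normalised read counts to 22020 ± 9317 at 0.5 h of LPS (log2 change 5.00 ± 0.27, limma, adjusted p = 8.76e-10). Mapk14, which encodes the main p38 kinase and a substrate of Dusp1, fell from 890.3 ± 25.2 to 140.0 ± 9.54 at 4 h of LPS (limma, adjusted p = 6.24e-12). Mknk2, a kinase of the translation factor eIF4E, fell in both courses, by 4.34 at 4 h of LPS (limma, adjusted p = 1.08e-08) and by 1.17 at 0.5 h of IL-4 (limma, adjusted p = 0.000842). In IL-4 Rps6ka5 fell by 1.29 and Mapkapk3 rose by 1.14. With equal sums the LPS split of this list was 4 to 13.

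Of the MAP2K and MAP3K kinases, which act upstream, all 23 tested (of 24) changed in LPS, 8 upwards and 15 downwards. That split was 12 to 10 after median-of-ratios rescaling, so no direction is given for the list, and the median of the largest change was -0.64 against -1.002 over all genes. Map3k5, a stress-activated kinase, rose from 891.7 ± 59.4 to 8488 ± 243 (normalised read counts) after 1 h of LPS (limma, adjusted p = 4.68e-10) and fell to 222.0 ± 7.21 at 4 h of IL-4 (limma, adjusted p = 2.82e-09). Map2k6, an activator of p38, fell from 165.0 ± 18.7 to 1 in each sample at 4 h of LPS (limma, adjusted p = 8.74e-12), and Map3k6 rose from 2.33 ± 1.15 to 38.3 ± 2.52 at 1 h (limma, adjusted p = 5.03e-06). In IL-4 14 changed, 6 upwards and 8 downwards, with a median of -0.24, and 6 were called without replicate 2 and 6 without replicate 3. Map3k8, which links TLR4 to ERK, rose by 1.66 ± 0.09 at 2 h of IL-4 (limma, adjusted p = 2.24e-08) and Map3k12 by 1.68 ± 0.14 (limma, adjusted p = 8.41e-07).

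Of the 22 other dual-specificity and MAPK-directed phosphatases, 11 were tested. All 11 changed in LPS, and 8 of them had a fall as the largest change (median -1.85, against -1.002 over all genes). Dusp22 fell from 179.7 ± 16.3 to 26.0 ± 1.00 (normalised read counts) by 4 h (limma, adjusted p = 2.62e-08), Dusp3 from 87.7 ± 7.57 to 14.0 ± 3.61 at 2 h (limma, adjusted p = 2.52e-07) and Ptpn7 from 47.7 ± 16.2 to 7.67 ± 5.69 at 2 h (limma, adjusted p = 8.16e-05). In IL-4 5 changed, 3 upwards and 2 downwards (median 0.19), a split that was 2 to 3 with equal sums, and none was called without replicate 2 or without replicate 3. Among these Ppm1d fell by 0.74 and Styx by 0.48 at 0.5 h, and Dusp22 rose by 0.65 at 1 h.

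Of the Sprouty, Spred and Errfi1 feedback inhibitors, which restrain receptor and Ras signalling to ERK, 5 of 8 were tested. All 5 changed in LPS, 4 with a rise (median 2.95). Errfi1 rose from 20.7 ± 0.577 to 1995 ± 162 (normalised read counts) within 0.5 h (limma, adjusted p = 5.35e-13), Spred1 from 784.0 ± 47.8 to 7116 ± 476 at 1 h (limma, adjusted p = 1.68e-12) and Spred2 from 147.7 ± 17.9 to 1142 ± 36.6 at 1 h (limma, adjusted p = 4.78e-09). In IL-4 3 changed (median -0.47): Errfi1 rose by 1.88 ± 0.30 and Spred1 by 1.35 ± 0.27 at 0.5 h, and Spred2 fell by 1.67 at 4 h (limma, adjusted p = 0.000548, 0.00304 and 0.000454). The immediate early genes, first targets of ERK and p38 signalling, had 21 of 22 tested, and 19 of these had a rise as the largest change in LPS (median 3.07). Egr1, Egr2 and Egr3, with untreated means of 7 (SD 9.54), 2.67 and 2.00, could pass the filter only where a stimulus had raised them. These counts are therefore no support. Egr1, Egr2 and Egr3 rose by 5.93 ± 0.67, 5.35 ± 0.34 and 4.97 ± 0.40 at 0.5 h (limma, adjusted p = 2.72e-06, 4.87e-09 and 8.58e-08). In IL-4 13 changed, 7 upwards and 6 downwards (median -0.80), a split that was 7 to 8 with equal sums, and 8 were called without replicate 2 and without replicate 3. Egr2 rose by 3.90 ± 0.39 and Myc by 3.79 ± 0.28 at 0.5 h of IL-4, and Btg2 fell by 3.08 (limma, adjusted p = 1.08e-05, 5.75e-07 and 6.41e-05).

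**Figure D5:**
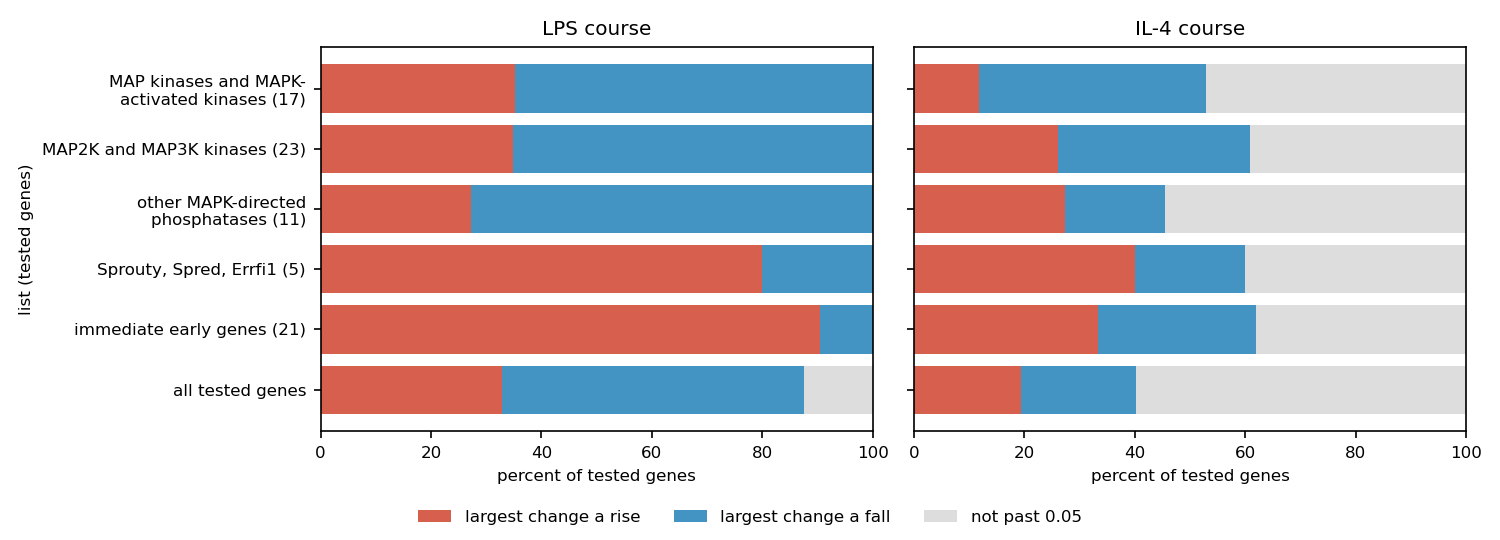
Percent of the tested genes of each list, and of all tested genes, whose largest change over the LPS course (left) or the IL-4 course (right) was a rise (red) or a fall (blue) past 0.05 in the F test, or that did not pass (grey); the number of tested genes follows each name. As the values were deposited, 19 of 21 immediate early genes had a rise in LPS, and 8 of 11 other MAPK-directed phosphatases had a fall. Genes low in untreated cells could be tested only where a stimulus had raised them.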

How the data were processed

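Chromatin-associated RNA of 27 BMDM samples was sequenced by the authors with Smart-seq2 (random primers, single-end reads). Per the labels and methods, reads were aligned with TopHat2 2.1.1 to mm10, filtered with bedtools 2.29.2 and counted per RefSeq gene (GRCm38.p6) in R 3.6.2, and libraries were scaled on invariant genes. The deposited values are normalised read counts rounded to whole numbers, handled as a score and not as raw counts. The sources used here do not say if strand was used in counting. The depth per sample is unknown, so no counting interval is given and precision rests on 3 replicates per group.

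A gene was tested if 3 or more of the 27 samples reached 10 normalised read counts, which 13901 genes did. Values were taken as log2(value + 1). The tests were those of limma 3.58.1 (R 4.3.3) with a trended prior, and p-values were adjusted across the 13901 genes by Benjamini-Hochberg, with calls under 0.05. Each course was fitted on 15 samples, with a moderated F test over 4 times and contrasts against untreated and between neighbouring times, which share the untreated samples. LPS and IL-4 were compared in 1 fit of 27 samples. The impulse model used by the study was not run. The fits were also run on simulated data drawn without a shared replicate effect, so that run does not cover the replicate effect of these samples.

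The 10 genes, the lists and the tests were chosen with earlier results of these data known. Promoters came from a RefSeq table and were searched on both strands. Named genes were the 10 genes, the 2 genes most like each gene with a mean of at least 50 in its highest group, and per list and course at most the 3 with the largest change. Alternatives were a pseudocount of 8, no filter, a mean of at least 50, 2 rescalings, the replicate number as a block, each replicate left out, and replicates 2 and 3 averaged.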

Additional observations from a re-analysis of the deposited data

Results flagged for a closer look

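For 5 genes the change from untreated was called in opposite directions in LPS and in IL-4 at the same time, and the direct test of LPS against IL-4 was past the threshold. Both changes share the 3 untreated samples. Dusp1 was higher in LPS and lower in IL-4 at 1, 2 and 4 h, with log2 differences (LPS minus IL-4) of 7.89, 6.96 and 7.39 (SE 0.37). Dusp5 did the same at 1 and 2 h, with differences of 7.11 and 4.70 (SE 0.36). Its IL-4 calls were lost without replicate 2 or 3. Dusp16 differed by 5.35 at 2 h and 6.38 at 4 h (SE 0.13). Dusp4 went the other way at 2 h, lower in LPS and higher in IL-4, with a difference of -4.09 (SE 0.26), and its lower call in LPS was lost under 4 alternatives. Dusp7 was lower in LPS and higher in IL-4 at 1, 2 and 4 h, with differences of -1.81, -3.61 and -2.08 (SE 0.24). With a pseudocount of 8 the differences of Dusp1 were 6.82, 5.88 and 6.03, and those of Dusp5 5.76 and 3.56. In the same setting those of Dusp16 were 5.23 and 6.20, that of Dusp4 -2.90 and those of Dusp7 -1.49, -2.66 and -1.67. The size of the differences thus hangs on the pseudocount. All 11 differences stayed past the threshold in every alternative that gave a value, while the IL-4 change alone was lost in at least 1 of them for Dusp1 at 1 and 2 h, Dusp5 and Dusp7.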

How the results depend on the processing

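Of the 102 changes called for the 9 tested genes, 69 stayed past 0.05 in every alternative that gave a value: 27 of 31 for LPS, 7 of 17 for IL-4, 29 of 32 between LPS and IL-4, 6 of 17 LPS steps and 0 of 5 IL-4 steps. Leaving out replicate 2 or 3 lost most of the others (limma, 27 and 31 of the 102 called changes, against 6 for replicate 1), in fits with 2 samples per group. The cause was not tested. No called change took the other sign. The values that did were uncalled. With equal sums they were Dusp10 at LPS 0.5 h (-0.021) and at 4 h of LPS against IL-4 (-0.12), Dusp1 in the LPS step from 2 to 4 h (0.012) and the IL-4 step from 1 to 2 h (0.041), and Dusp16 at IL-4 1 h (-0.061). Dusp10 did so at 0.5 h of LPS against IL-4 with median-of-ratios rescaling (0.10), and Dusp2 at IL-4 1 h with replicates 2 and 3 averaged (0.085). Leaving out 1 replicate turned the sign of more uncalled values: in the LPS step from 1 to 2 h Dusp6 ran from -0.87 to 0.035 and Dusp10 from -0.0035 to 0.24, in that from 2 to 4 h Dusp1 from -0.16 to 0.074, at IL-4 1 h Dusp2 from -0.50 to 0.29, Dusp8 from -0.66 to 0.50 and Dusp16 from -0.022 to 0.11, and at IL-4 2 h Dusp8 from -0.45 to 1.00. In the IL-4 step from 1 to 2 h Dusp1 ran from -0.24 to 0.096, Dusp2 from -0.79 to 0.21, Dusp8 from -0.29 to 0.79 and Dusp10 from -0.039 to 0.10, and in that from 2 to 4 h Dusp4 from -0.063 to 0.17.

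A mean of at least 50 leaves 5 of the genes to test, so the counts dropped by construction: 5 in the LPS course, 5, 5 and 4 at 0.5, 1 and 4 h of LPS, 2 and 3 in the LPS steps from 0.5 to 1 h and from 2 to 4 h, 3 at 4 h of IL-4, 4, 5, 5 and 5 for LPS against IL-4, and, of the lists, 7 other phosphatases, 3 feedback inhibitors and 9 immediate early genes in LPS and 6 of the latter in IL-4. Without a filter 2 genes were called in the LPS step from 0.5 to 1 h, 0 in the IL-4 step from 0.5 to 1 h and 3 other phosphatases in IL-4. Median-of-ratios rescaling gave 3 in the LPS step from 0.5 to 1 h. With replicates 2 and 3 averaged there were 1 and 2 in the LPS steps from 0.5 to 1 h and from 2 to 4 h, 1, 1 and 3 at 0.5, 1 and 2 h of IL-4, 0 in the IL-4 steps from 0.5 to 1 h and from 2 to 4 h, and, in IL-4, 7 MAP2K and MAP3K kinases, 0 other phosphatases and 8 immediate early genes. Leaving out 1 replicate gave 2 to 6 in the IL-4 course, 1 to 4, 4 to 7 and 1 to 5 in the LPS steps, 1 to 2, 1 to 4, 2 to 6 and 3 to 5 at the IL-4 times, 0 to 3, 0 to 1 and 0 to 1 in the IL-4 steps, and, in IL-4, 6 to 17 MAP2K and MAP3K kinases, 0 to 5 other phosphatases and 8 to 14 immediate early genes.

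Samples with the same replicate number deviated together with a correlation of 0.351 to 0.713 for replicate 1, 0.202 to 0.454 for replicate 3 and 0.0897 to 0.361 for replicate 2. All 9 samples of replicate 1 and all 9 of replicate 3 correlated best with their own number, but 1 of 9 did for replicate 2. The main fits had no block for the number, as the study describes no batch term in its test of each course. The shared deviations are a hint from the data, not the design. With the replicate number as a block all 30 counts were the same to within 1.5 times (9 genes in the LPS course), and 1 of 162 changes was newly called, Dusp8 at LPS 2 h (1.07, limma, adjusted p = 0.0462). Depth is unknown, and values under 10 rest on few reads.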
